A study of Homo sapiens with 2 samples.

Results

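The genes described here are the members of the tumour necrosis factor (TNF) superfamily and of the signalling steps beneath its receptors that were measured in MCF-10A, a widely used human cell line of mammary epithelium that does not form tumours. They were chosen by symbol, with earlier results of these arrays known. The rule took any symbol made of TNFSF or TNFRSF and a number. It also took 19 further names of ligands, receptors, TRAF adaptors, inhibitor of apoptosis proteins and NF-kB subunits and inhibitors. Of the 14812 genes with a symbol on the array, 12 met this rule, and they rest on 20 array features. The study compared cells stably expressing ARHGAP4 fused to EGFP (EGFP-ARHGAP4) with cells stably expressing EGFP alone (EGFP vector), with 1 array of total RNA per line. Cells of both lines therefore carry an EGFP construct, and whether a line is 1 clone or a pool is not stated in the labels. ARHGAP4 is a GTPase-activating protein. With 1 array per line, the differences below cannot be set against variation between cultures, and none carries a p-value, an SD or a standard error.

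Most genes that met the rule here are signalling genes, so the name "ligands and receptors" covers little of what was measured. Among the 12 genes were 1 ligand, TNF itself, 1 receptor, NGFR, 5 adaptors (TRAF1, TRAF3, TRAF4, TRAF5 and BIRC2), 3 NF-kB subunits (NFKB1, RELA and RELB) and 2 non-coding transcripts. The non-coding pair, TNFRSF10A-DT and TNFRSF14-AS1, met the rule through the names of their neighbouring receptor genes and say nothing of the level of those receptors. The 33 protein-coding TNFSF and TNFRSF genes of the RefSeq gene table were not analysed here. Nor were LTA, LTB, LTBR, CD40, TRAF2, TRAF6, BIRC3, NFKBIB and NFKBIE.

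TNF superfamily ligands are trimeric membrane or secreted proteins, and their receptors have no enzyme activity of their own. Receptors recruit TRAF proteins and the ubiquitin ligases cIAP1 and cIAP2, and this leads to activation of the NF-kB transcription factors. In the canonical branch IkB kinase frees dimers of RELA and NFKB1. In the non-canonical branch the kinase NIK, encoded by MAP3K14 and held low by TRAF3 and the cIAPs in resting cells, acts through CHUK on NFKB2 and so frees RELB. Death domain receptors can instead recruit TRADD or FADD and start caspase-dependent cell death.

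ARHGAP4 had a log2 expression value of 6.68 in the EGFP-ARHGAP4 array and 4.49 in the EGFP vector array, a difference of 2.19 in the direction of the labels. Each difference below is the log2 value of the EGFP-ARHGAP4 array less that of the EGFP vector array. They are relative to the bulk of the array, since the median over all features was 2.88 in both arrays. The threshold for counting a gene was 0.5 on the log2 scale (1.41-fold) in either direction, and counts at 2-fold are given as well. A gene was called above the level limit when the mean of its values in the 2 arrays reached 4.02, the median of all gene-level values. Of 10 listed mammary epithelial markers 4 were measured, and all 4 lay above the limit in both arrays. In the EGFP-ARHGAP4 array KRT5 stood at 8.34, KRT18 at 7.38, EPCAM at 7.79 and KRT14 at 6.96, and in the EGFP vector array they stood at 8.33, 7.30, 6.58 and 9.21 (KRT5, KRT18, EPCAM and KRT14).

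None of the 12 genes was higher by 0.5 in the EGFP-ARHGAP4 array, and 2 were lower by that much, TRAF5 and BIRC2. Of all named genes, 4.25% were higher and 6.47% lower at this threshold. Above the level limit 4.49% of genes were higher and 9.56% lower, and TRAF5 and BIRC2 belonged to this class, which held 9 of the 12. The 2 lower genes are 16.7% of the 12, but a count of 2 in so small a set cannot show a difference from that background. None of the 12 differed by 2-fold, against 0.581% of all named genes higher and 0.486% lower by that factor. The median difference of the 12 was -0.11, against -0.03 for all named genes and -0.10 for those above the level limit. The differences ran from -0.55 to 0.44, with 5 above 0 and 7 below.

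**Figure D1:**
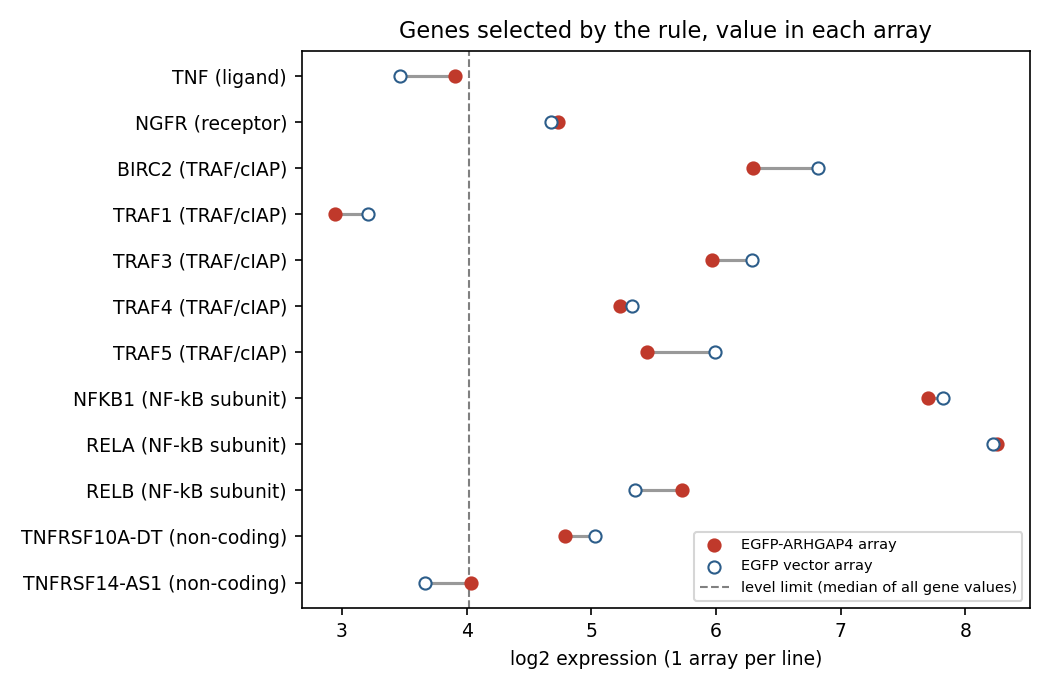
Log2 expression of each of the 12 genes in the EGFP-ARHGAP4 array (filled) and the EGFP vector array (open), 1 array per line, grouped as ligand, receptor, adaptor, NF-kB subunit and non-coding transcript. The dashed line is the level limit of 4.02; all 5 adaptors lie to the left in the EGFP-ARHGAP4 array, while TNF and RELB lie to the right.

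TNF, the founding ligand of the family and an activator of NF-kB, stood at 3.90 in the EGFP-ARHGAP4 array and 3.47 in the EGFP vector array. It was higher by 0.44 with the fusion protein (1.35-fold), short of the threshold. Both values lie below the level limit, where 6.23% of genes were higher by as much or more. TNF was represented by 8 features, but 7 of them hold exactly the same pair of values, 3.98 in the EGFP-ARHGAP4 array and 3.53 in the EGFP vector array, and so give 1 measurement. The eighth stood at 3.37 with the fusion protein and 3.01 with EGFP alone. Both distinct measurements were higher in the EGFP-ARHGAP4 array, by 0.45 and 0.36, and counting the identical features once gave 0.40. The 20 nearest genes above the level limit on chromosome 6, 10 on each side, had a median of 0.01.

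NGFR, the low-affinity neurotrophin receptor and the only measured receptor with a rule symbol, stood at 4.74 in the EGFP-ARHGAP4 array and 4.68 in the EGFP vector array. That difference of 0.06 is smaller than 0.22, the pooled SD of differences between features of the same gene over the 312 genes above the level limit with more than 1 distinct feature. This SD describes agreement between features on the same 2 arrays and not between cultures.

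All 5 measured adaptors named by the rule were lower in the EGFP-ARHGAP4 array, with a median of -0.32. Genes above the level limit, where 4 of these adaptors lay, were below 0 in 61.8% of cases, so a negative sign alone was the more frequent one there. Of all named genes 52.9% were below 0. TRAF1 lay below the limit, so the share of 61.8% does not cover it. TRAF5, an adaptor of several lymphotoxin-type and costimulatory receptors, stood at 5.45 in the EGFP-ARHGAP4 array and 5.996 in the EGFP vector array, 1.46-fold lower. Of the genes above the level limit, 7.55% were lower by as much or more. BIRC2, which encodes the ubiquitin ligase cIAP1, stood at 6.29 in the EGFP-ARHGAP4 array and 6.82 in the EGFP vector array, 1.43-fold lower, and 8.64% of genes above the limit were as far down. Both differences shrank once the difference that depends on level was taken out. After quantile normalization of the 2 arrays TRAF5 was at -0.45 and BIRC2 at -0.42, and after removal of a loess curve they were at -0.45 and -0.40, so neither passed the threshold under those scalings.

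The remaining adaptors differed less. TRAF3, a brake on NIK in the non-canonical branch, had 5.97 in the EGFP-ARHGAP4 array and 6.29 in the EGFP vector array, a difference of -0.32. TRAF1, itself known as an NF-kB target and a partner of TRAF2, lay below the level limit in both arrays, at 2.94 with the fusion protein and 3.21 with EGFP alone. TRAF4 is known for roles in epithelial polarity and cell migration more than in TNF receptor signalling. It had 5.23 in the EGFP-ARHGAP4 array and 5.32 in the EGFP vector array. That difference of -0.10 matches the median of genes above the limit, and was -0.02 after quantile normalization and -0.01 after loess. The genes around these loci do not share 1 pattern: the 20 nearest genes above the level limit had medians of -0.03 around TRAF5, -0.19 around BIRC2, -0.17 around TRAF3, -0.09 around TRAF1 and 0.04 around TRAF4.

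**Figure D2:**
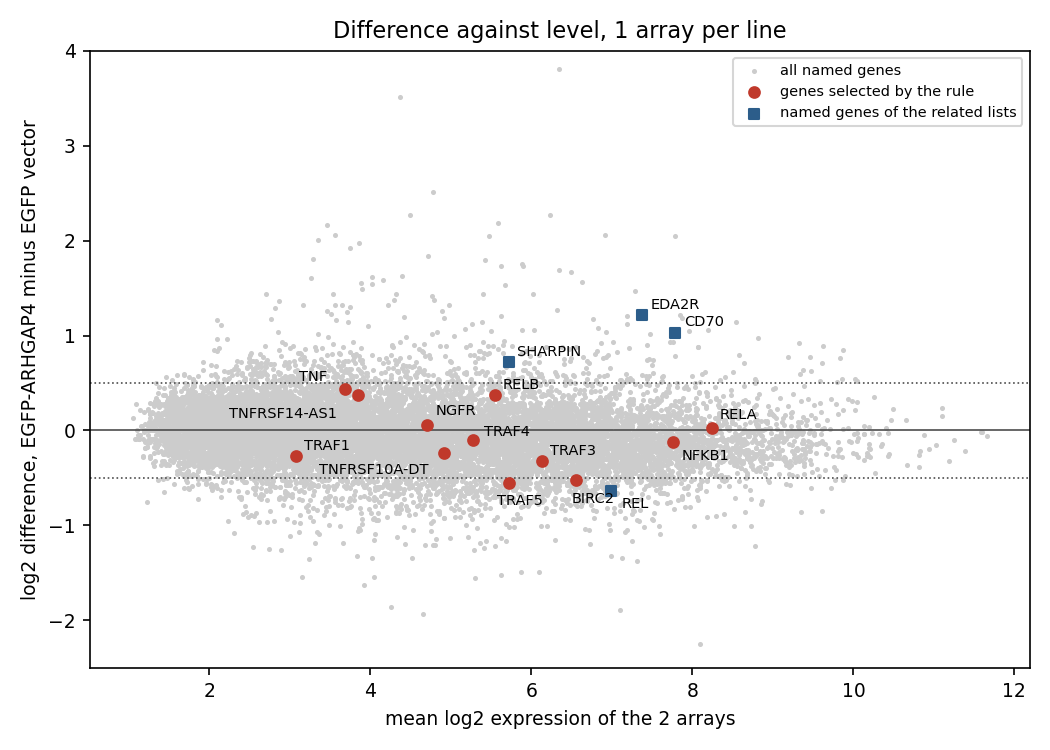
Log2 difference (EGFP-ARHGAP4 minus EGFP vector, vertical axis) against mean log2 expression (horizontal axis) for all 14812 named genes in grey, the 12 rule-selected genes as red circles and 4 genes of related lists as blue squares. The dotted lines mark differences of 0.5 either way; only TRAF5 and BIRC2 of the 12 lie outside them.

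The NF-kB subunits gave no common direction. RELA, the main activating subunit of the canonical branch, stood at 8.25 in the EGFP-ARHGAP4 array and 8.22 in the EGFP vector array, and NFKB1, its usual partner, at 7.70 with the fusion protein and 7.82 with EGFP alone. Neither difference, 0.03 for RELA and -0.12 for NFKB1, exceeds the spread between features of 1 gene, and that of NFKB1 was 0.02 after loess. RELB, the activating subunit of the non-canonical branch, stood at 5.73 in the EGFP-ARHGAP4 array and 5.35 in the EGFP vector array. It was higher by 0.38 (1.30-fold), or by 0.47 after quantile normalization or loess, and 7.77% of genes above the level limit were as high or higher. The 20 nearest genes above the level limit on chromosome 19 had a median of 0.15.

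Of the non-coding pair, TNFRSF10A-DT, a divergent transcript of a TRAIL receptor gene, had 4.79 in the EGFP-ARHGAP4 array and 5.03 in the EGFP vector array. Its 2 features differed by -0.35 and -0.13. TNFRSF14-AS1, an antisense transcript of the receptor for LIGHT, had 4.04 in the EGFP-ARHGAP4 array and 3.66 in the EGFP vector array, a difference of 0.37 at a mean level below the limit.

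**Figure D3:**
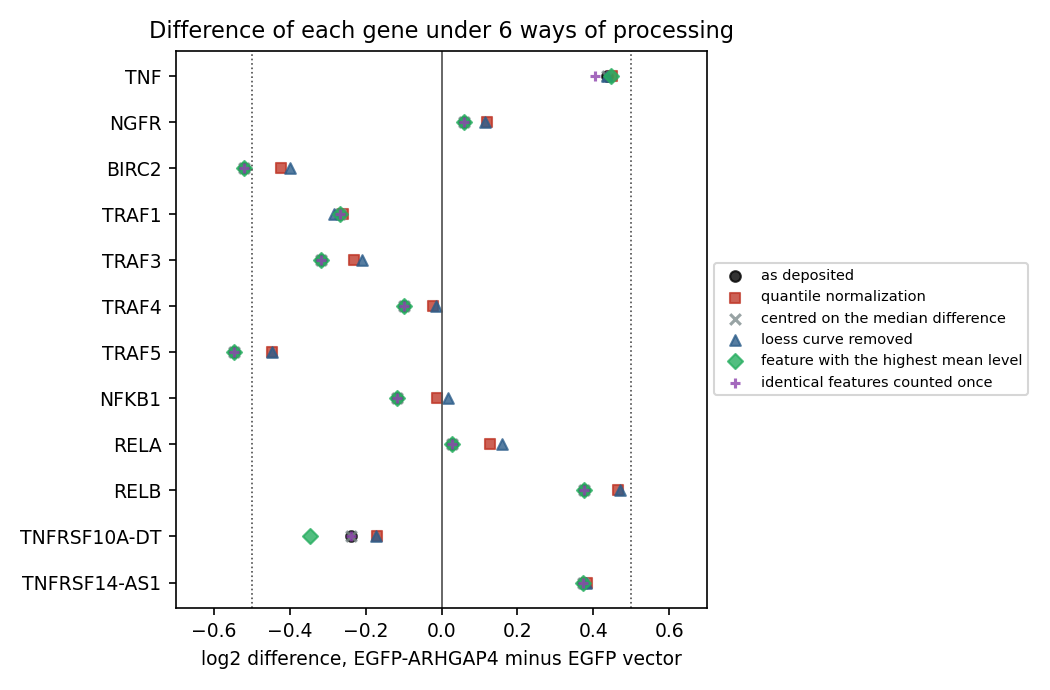
Log2 difference of each of the 12 genes (EGFP-ARHGAP4 minus EGFP vector) under 6 ways of processing, with dotted lines at 0.5 either way; markers that coincide lie on top of each other. TRAF5 and BIRC2 move inside the lines after quantile normalization and loess, and NFKB1 alone crosses 0, at 0.02 after loess.

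Several genes of this pathway are known to be under NF-kB control themselves, so promoter windows (250 bases before to 50 after a transcription start, RefSeq, GRCh38.p14) were searched on both strands for the kappa B consensus, the DNA sequence bound by NF-kB dimers. The table held 16 windows for 9 of the 12 genes. The consensus was found in 2 of the 16, 1 window each of NFKB1 and TRAF3, and in 5.91% of all 35116 windows. Counted by gene, it was found in 2 of the 9, and in 7.09% of all 27305 genes with a window. Counts this small cannot show a difference from that background. Both matches are on the strand of the gene, and neither overlaps a second match. The match begins 49 bases before the start in NFKB1 and 33 bases before it in TRAF3. The 250 bases before the start are printed for these genes, with the match in capitals, and for BIRC2 and TRAF5, the genes past the threshold, at the first of their 2 and 3 windows.
NFKB1 (chr4:102501109-102501358, plus strand): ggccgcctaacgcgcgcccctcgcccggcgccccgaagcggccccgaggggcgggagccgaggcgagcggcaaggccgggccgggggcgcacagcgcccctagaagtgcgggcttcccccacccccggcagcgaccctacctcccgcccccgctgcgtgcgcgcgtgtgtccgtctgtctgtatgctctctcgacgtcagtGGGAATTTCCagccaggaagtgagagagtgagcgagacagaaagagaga
TRAF3 (chr14:102777199-102777448, plus strand): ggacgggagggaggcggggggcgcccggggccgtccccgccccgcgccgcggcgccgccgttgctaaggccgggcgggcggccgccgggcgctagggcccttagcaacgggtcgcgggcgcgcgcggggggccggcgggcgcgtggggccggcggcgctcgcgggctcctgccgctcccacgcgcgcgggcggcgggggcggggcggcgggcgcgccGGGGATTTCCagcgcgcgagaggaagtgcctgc
BIRC2 (chr11:102346964-102347213, plus strand): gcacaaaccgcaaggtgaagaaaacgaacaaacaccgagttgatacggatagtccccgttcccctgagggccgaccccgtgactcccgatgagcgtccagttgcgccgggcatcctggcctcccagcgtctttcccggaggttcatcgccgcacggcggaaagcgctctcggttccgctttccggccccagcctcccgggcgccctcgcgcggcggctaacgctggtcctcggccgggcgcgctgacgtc
TRAF5 (chr1:211326385-211326634, plus strand): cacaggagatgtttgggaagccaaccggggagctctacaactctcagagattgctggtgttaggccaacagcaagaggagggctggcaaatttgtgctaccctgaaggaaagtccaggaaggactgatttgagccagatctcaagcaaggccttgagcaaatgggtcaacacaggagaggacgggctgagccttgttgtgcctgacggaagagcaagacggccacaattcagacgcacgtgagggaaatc
No window of BIRC2, TRAF5, TRAF1, TRAF4, RELA, TNF or TNFRSF14-AS1 held the consensus, which says nothing of other kappa B sites or of binding. The genes with a match were NFKB1, at -0.12 (0.02 after loess), and TRAF3, at -0.32. Whether the matches bear on these values was not tested.

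Larger differences were found among TNF family genes that carry other symbols. Of 9 such genes 6 were measured, and 2 of the 6 were at least 2-fold higher in the EGFP-ARHGAP4 array, while none was lower by 0.5. Of all named genes, 0.581% were at least 2-fold higher and 6.47% lower by 0.5, and the list was drawn up with earlier results of these arrays known. CD70, the ligand of CD27 and best known from activated lymphocytes, stood at 8.30 in the EGFP-ARHGAP4 array and 7.27 in the EGFP vector array, 2.04-fold higher, and 0.732% of genes above the level limit were as high or higher. EDA2R, a receptor for an ectodysplasin isoform and a known p53 target, stood at 7.98 with the fusion protein and 6.76 with EGFP alone, 2.32-fold higher. The genes around them did not differ in the same way, with medians of -0.21 for the 20 nearest to CD70 and -0.10 for the 20 nearest to EDA2R. Their partners differed less. CD27, the receptor of CD70, stood at 3.07 in the EGFP-ARHGAP4 array and 2.95 in the EGFP vector array, below the level limit, and the ligand gene EDA at 4.42 with the fusion protein and 4.12 with EGFP alone. The receptor genes EDAR and RELT were at -0.22 and -0.13. FAS, FASLG and CD40LG were not analysed here. Of 10 listed blood cell markers 3 were measured: LAPTM5 stood at 6.50 in the EGFP-ARHGAP4 array and 4.45 in the EGFP vector array, CD14 at 5.48 with the fusion protein and 5.84 with EGFP alone, and CD53 at 2.04 in both. Of 5 endothelial markers 2 were measured: KDR stood at 5.63 with the fusion protein and 3.36 with EGFP alone, and VWF at 2.80 with the fusion protein and 2.68 with EGFP alone. Of 5 fibroblast markers 3 were measured, all below the level limit, with differences from -0.13 to 0.30. The part of such markers in the values of CD70 and of the response genes below was not tested.

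Genes of the receptor complexes and of death signalling differed little. Of 26 listed 18 were measured, with a median of -0.02, and 1 (5.56%) was higher and none lower by 0.5. These shares are near or below those of all named genes, 4.25% higher and 6.47% lower. The one was SHARPIN, a subunit of the linear ubiquitin ligase complex that stabilises TNF receptor signalling, at 6.08 in the EGFP-ARHGAP4 array and 5.36 in the EGFP vector array (1.65-fold). The complex's other measured subunits were at 0.29 for RNF31, the catalytic one, and 0.14 for RBCK1. The 20 nearest genes to SHARPIN above the level limit had a median of 0.23. TRADD, the death domain adaptor of TNF receptor 1, had 5.97 with the fusion protein and 5.83 with EGFP alone. FADD, which brings in the initiator caspase, had 5.87 with the fusion protein and 6.02 with EGFP alone. CFLAR, which blocks that caspase, differed by 0.05, XIAP by -0.02 and the necroptosis effector MLKL by -0.27. The lowest of the list was MAP3K5, a stress-activated kinase downstream of TRAF proteins, at -0.47. RIPK3 had the same value in both arrays, 2.04, as did 6.96% of all features. RIPK1 and CASP8 were not analysed here.

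Among 17 further NF-kB pathway genes 10 were measured, with a median of 0.05, none higher and 1 of the 10 lower by 0.5. The share lower was 6.47% over all named genes and 9.56% above the level limit, so this count is near the background. That one was REL, an NF-kB subunit known from lymphoid cells, at 6.67 in the EGFP-ARHGAP4 array and 7.31 in the EGFP vector array, 1.56-fold lower. Of genes above the level limit, 4.69% were as low or lower. In the non-canonical branch NFKB2, the precursor that pairs with RELB, had 6.99 with the fusion protein and 6.66 with EGFP alone, a difference of 0.32. The kinase gene CHUK differed by 0.20 and MAP3K14, which encodes NIK, by -0.03. NFKB2 and CHUK both lie on chromosome 10, where the 20 genes nearest to each had medians of 0.32 and 0.33, close to the value of NFKB2 and above that of CHUK. Not all of chromosome 10 was higher. MAP3K8, on the same chromosome and below the level limit, had 2.84 in both arrays, and its 20 nearest genes had a median of -0.88. BCL3, an atypical IkB protein that works with NF-kB in the nucleus, was at 0.14, and TNIP1, a partner of the inhibitor TNFAIP3, at 0.21.

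Of 39 listed genes known to respond to TNF or NF-kB 26 were measured, and 9 (34.6%) were higher by 0.5 and 1 was lower, against 4.25% and 6.47% of all named genes. Their median was 0.26, and 6 of the 9 lay above the level limit. At 2-fold there were 3, the chemokine genes CCL20 and CCL2 and the complement gene CFB. CCL20 stood at 8.81 in the EGFP-ARHGAP4 array and 6.76 in the EGFP vector array. CCL2, a chemokine for monocytes, stood at 3.42 with the fusion protein and 1.98 with EGFP alone, below the level limit in both, so its fold is approximate. CFB, complement factor B, stood at 5.34 with the fusion protein and 4.30 with EGFP alone (2.05-fold), and C3, the central complement component, at 9.96 in the EGFP-ARHGAP4 array and 9.25 in the EGFP vector array (1.63-fold). The acute phase gene SAA1 was higher by 0.92 and the neutrophil chemokine gene CXCL8 by 0.90. The other genes past 0.5 were the cytokine gene LIF at 0.68, the siderophore-binding protein gene LCN2 at 0.56 and the chemokine gene CXCL3 at 0.53. LCN2 and CXCL3, like CCL2, lay below the level limit in both arrays. GCH1, of tetrahydrobiopterin synthesis, was the 1 lower gene, at -0.58.

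The other 16 response genes differed by less than 0.5. The highest of these were the cytokine gene IL32 at 0.46, the prostaglandin synthesis gene PTGS2 at 0.44 and the chemokine genes CXCL10 at 0.41, CXCL2 at 0.27 and CCL5 at 0.25. The lowest were the growth factor gene CSF3 at -0.25, BCL2A1, an inhibitor of cell death, at -0.23 and the adhesion gene ICAM1 at -0.20. IL32, PTGS2, CXCL10, CCL5 and BCL2A1 had mean levels below the level limit. ZC3H12A was at 0.04 and IER3 at 0.02. IER3 was represented by 11 features. The response list was drawn up with earlier results of these arrays known, and some of its genes also appear among chemokine and acute phase genes known to be higher here, so its count is not independent evidence of a direction.

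**Figure D4:**
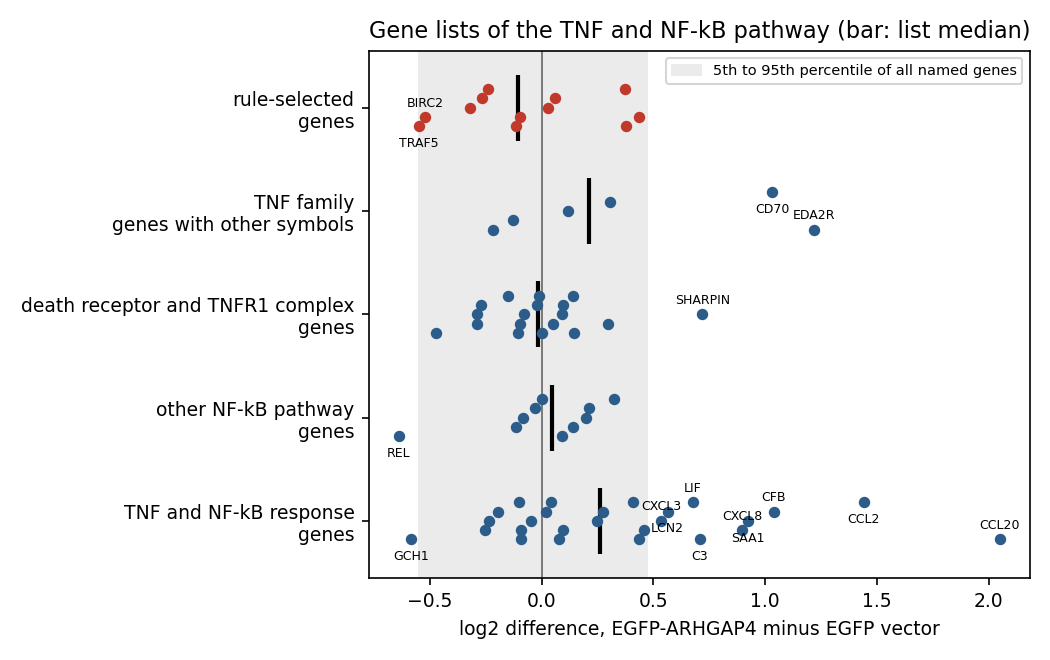
Log2 difference (EGFP-ARHGAP4 minus EGFP vector, horizontal axis) of every measured gene in the rule-selected set (red) and 4 related lists (blue); black bars are list medians, and the grey band runs from the 5th to the 95th percentile of all named genes (-0.55 to 0.47). Genes at 0.5 or more either way are named. Of the 26 response genes 9 lie above 0.5, against 4.25% of all named genes, and none of the 12 rule-selected genes does. The response list was drawn up with earlier results of these arrays known, so this count is not independent evidence.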

How the data were processed

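Total RNA was amplified with a whole-transcript kit, labelled with biotin and hybridised to Affymetrix arrays, per the labels' protocols. The deposited table gives 1 log2 expression value per feature and array for 44629 features in 2 arrays. No source used here states its summarisation, normalization or genome build. The base was inferred from the values, whose highest, 12.8, exceeds the natural log of a 16-bit reading, 11.1. Platform annotation of 2020 named 15835 features, and features of 1 symbol were averaged to 14812 genes, all matched to the GRCh38.p14 RefSeq table for chromosome and order. Samples were grouped by the genotype in their labels. With 1 array per group nothing was tested; precision is limited by the number of arrays. Counts were set beside those of all named genes. The members and lists were chosen with earlier results of these data known.

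Values are given for each member and, from the related lists, for genes at 0.5 or more either way and for defining pathway genes; MLKL, CFLAR, XIAP, MAP3K5, RNF31, RBCK1, MAP3K14, BCL3, TNIP1, ZC3H12A, IER3, ICAM1, CSF3, IL32, PTGS2, CXCL10, CXCL2, CCL5, BCL2A1, EDAR, RELT, CD27 and EDA were added after their values were seen. The motif search had been planned for members at 0.5 or more either way and was run on all members with a promoter window. The form of the motif was chosen after several forms had been searched. Alternatives were quantile normalization, centring, loess (span 0.3), the feature of highest level, other limits and thresholds, leaving out chromosome 10 and, chosen after seeing the data, counting identical features once and leaving out non-coding transcripts. Tables were handled in Python 3.11.15 with numpy 2.4.6 and pandas 2.3.3, the loess curve was fitted with statsmodels 0.14.6, and plots were drawn with matplotlib 3.10.9. The gene differences and their scalings were checked on simulated arrays with planted differences. That check covers the calculations and not the results, and it left out the neighbour medians and the motif search.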

Additional observations from a re-analysis of the deposited data

How the results depend on the processing

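The 2 genes lower by 0.5, TRAF5 and BIRC2, became 0 after quantile normalization, after loess and at a threshold of 1, both over all 12 genes and above the level limit; with the limit at the 0.75 quantile, 1 of them was counted. The count of genes higher by 0.5 was 0 under every alternative run. The median of the 12 changed sign after loess, from -0.11 to 0.0019, and was -0.02 after quantile normalization; that of the adaptors lay between -0.42 and -0.26. These scalings moved the median of genes above the level limit by 0.08 and 0.10. Centring changed nothing, since the median feature difference was 0. ARHGAP4 lay between 2.19 and 2.28. At a threshold of 1 the counts of related genes became 0 for SHARPIN's list, 0 for REL's list, and 3 higher and 0 lower for the response list, whose 1 lower gene was also lost (0) after quantile normalization and loess. The count of 2 higher genes in the list of CD70 and EDA2R was the same under all alternatives run on it. No paired analysis was possible because each group has 1 array. With 1 array per line, no group could be searched for an outlying sample, and values below the level limit, where differences narrow towards background, give approximate folds.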
